A study of Rattus norvegicus with 24 samples.

Results

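Solute carriers are membrane proteins that move small molecules and ions across the cell surface and across the membranes of mitochondria, Golgi, endoplasmic reticulum and vesicles. In brain microvessels they set which nutrients, ions, metals and vitamins pass between blood and brain, since the tight junctions of the endothelium close the way between cells. Most couple the movement of their substrate to a sodium, proton or chloride gradient or exchange one molecule for another.

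The 49 probes described here measured 48 solute carrier genes, out of 422 probes with 1 Slc gene symbol (308 genes) and 31099 probes on the array. They were chosen by signal level alone: a probe entered if at most 14 of its 24 values had the digit pattern of a log2 signal below 10. A further 21 probes of 16 genes met that rule and were left out by name, among them the main amino acid, glucose, monocarboxylate, creatine and thyroid hormone carriers of the blood-brain barrier. The level that chose the probes is a description and supports nothing below. Group labels did not enter the rule, but it counts the cells below 10 of all 3 groups, so the shares of readings at 10 or above given below are descriptions too.

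RNA of microvessels from rat brain cortex was hybridised to 24 arrays, 8 in each of 3 groups. In the HAL and HEP groups acute liver failure was produced by a portocaval anastomosis, by which portal blood bypasses the liver, and, 24 h later, by tying off the hepatic artery (HAL) or taking out the liver (HEP). The Sham group went through fictitious operations in the same 2 steps, and tissue was taken 8 to 12 h after the second step in all groups. Separate rats for the arrays are not stated in the labels. The p-values therefore reflect the scatter among arrays, and precision is limited by their number. In RNA of whole microvessels, fewer cells of a type and less RNA per cell cannot be told apart.

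Of every log2 signal, the table as provided here keeps only the decimals, without zeros at either end. A cell of 9 digits comes from a signal below 10, and one of 8 digits was taken as 10 or above. A probe that crosses 10 was therefore read as 9 or 10 plus its decimals, called a reading here. A signal below 10 that lost a zero also has 8 digits, and its reading would be too high. A probe that stays at 10 or higher on every array has decimals but no whole number. For such a probe a difference is known only up to whole log2 units, so each difference has another version 1 log2 unit away. A single array off by 1 unit would shift a group mean by less. Cells of 7 digits or fewer were not read. With leading zeros added, such a cell of a probe near 10 would read just above 10. Counts of readings at 10 or above therefore leave out arrays that may belong there. They may also include signals below 10 that lost a zero.

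Of the 49 probes, 19 had no cell pattern of a signal below 10 on any of the 24 arrays. A further 15 were placed near 10 by a model of each probe's level that did not use the groups. The remaining 15 could not be placed. The model used the digit counts and decimals, so the following shares describe its placement and do not test it. In the placed probes, of 104 cells of 9 digits 15.4% had decimals under 0.5, and of 193 cells of 8 digits 72.0% did. In the unplaced probes these shares were 58.1% of 198 and 41.4% of 140. A probe close to another whole number, whose first decimal 0 was lost, also gives cells of 8 digits. Differences of unplaced probes are therefore not described as levels. Among all 2527 probes of the range from 1 to 14 such cells, 1515 were placed (60.0%).

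**Figure D1:**
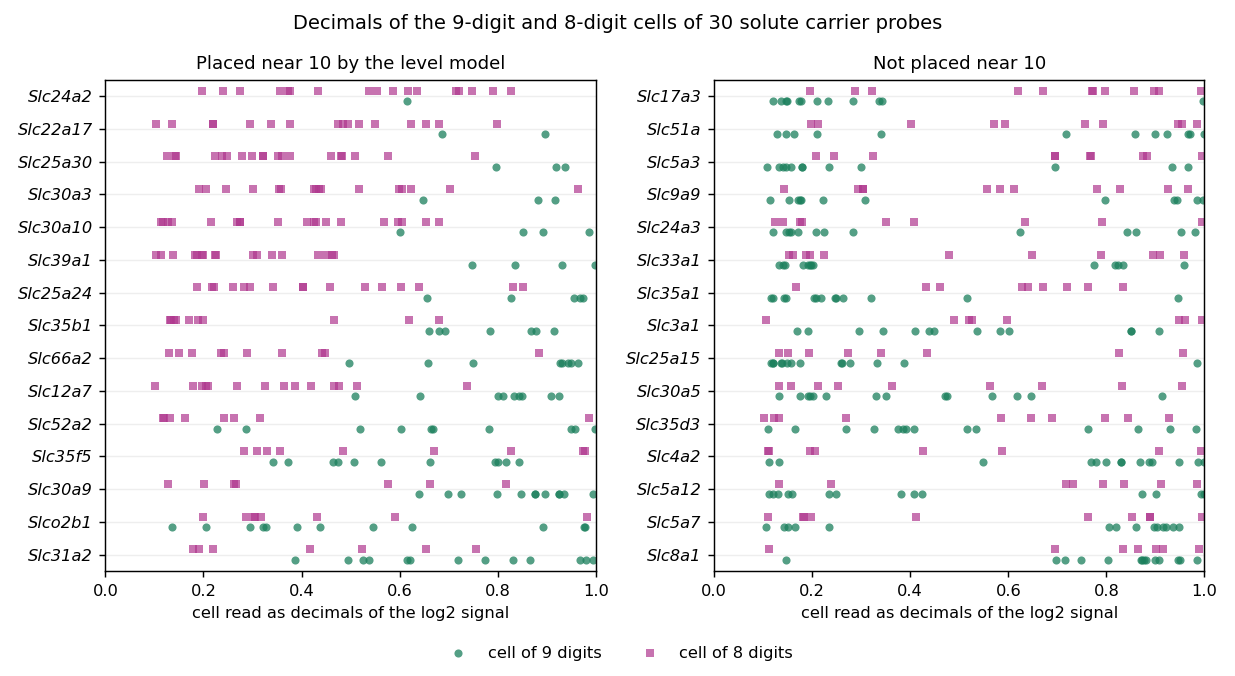
Decimals of every cell read, for the 15 probes placed near 10 (left) and the 15 that were not (right). The x axis is the decimal part of the log2 signal, green circles are cells of 9 digits and magenta squares cells of 8 digits. On the left 15.4% of the circles and 72.0% of the squares lie under 0.5, and on the right 58.1% and 41.4%.

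At the edge of the choice, with 13 or 14 cells of 9 digits, stood Slc24a3, Slc31a2, Slc33a1, Slc3a1 and the second probe of Slc35a1 (13 cells), and Slc25a15, Slc30a5, Slc35d3, Slc4a2, Slc5a12, Slc5a7 and Slc8a1 (14 cells). Slc31a2 was the 1 probe of these 12 that was placed near 10. Just outside were 13 probes with 15 such cells, of which 1 (Slc35f2) was placed, and 19 probes with 16, of which 2 were placed (Slc25a42 and a second probe of Slc6a20a). Among the other probes with 15 cells were those of Slc1a2, Slc5a6, Slc16a8 and Slc50a1, and among those with 16 those of Slc2a13, Slc27a4, Slc39a11 and Slc44a1.

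By gene family, the largest groups were 10 probes for metals and vitamins, 9 for ions and acid-base and 9 mitochondrial carriers of the Slc25 family. Carriers for amino acids and transmitters had 6 probes, and those of Golgi, endoplasmic reticulum and lysosome also 6. Lipids, nucleosides and organic ions had 4, the Slc5 family of sodium cotransporters for sugars, carboxylates and choline 3, and 2 fell in no group. The 19 probes at 10 or above on all arrays included 6 mitochondrial and 5 amino acid or transmitter carriers. None of the 3 Slc5 probes was placed.

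The arrays carried the vessel markers of the labelled tissue. Of 9 endothelial markers with a probe, 8 had a probe that stayed at 10 or higher on every array, as had 2 of 6 pericyte, 2 of 4 smooth muscle, 3 of 6 astrocyte and 1 of 4 oligodendrocyte markers. None of the 6 neuron, 5 microglia, 4 choroid plexus or 4 hepatocyte markers had one. Of the carriers described below, Slc12a5 and Slc6a17, both known from neurons, did have such a probe. Which cells their RNA came from was not tested. The number of cells of 9 digits ranged from 22626 to 23048 per array. The lowest median readings over all genes near 10 were 9.96 on HAL array 2, 10.10 on Sham array 3 and 10.11 on HAL array 5.

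No solute carrier of the 48 passed the threshold in HAL or HEP against Sham or in HEP against HAL. By limma, with p-values adjusted after Benjamini-Hochberg, 66 of 1738 genes read near 10 passed an adjusted p of 0.05 in HAL (3.8%) and 49 in HEP (2.82%), and 0 in HEP against HAL (0%). Of the 30 members in that fit 0 passed, and 5, 3 and 1 had an unadjusted p under 0.05, against 307, 277 and 161 of all genes. Refitted on the 1146 genes with a placed probe, 99 genes (8.64%) passed in HAL, 55 (4.8%) in HEP and 0 (0%) in HEP against HAL. All 15 placed members were in that fit, with 0 passing and 5, 3 and 0 below an unadjusted p of 0.05, against 268, 247 and 126 of the 1146 genes. Set against these shares of called genes, a count of 0 among 15 or 30 members lies near the background and is not a result about these carriers. Both comparisons with Sham use the same 8 Sham arrays.

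The differences of the 15 placed carriers had both signs. In HAL 7 differences were positive and 8 negative, with a median of -0.0012 log2 against -0.038 over the 1146 genes. In HEP 9 were positive, with a median of 0.12 against 0.019, and in HEP against HAL 11, with 0.077 against 0.057. Over their 15 probes, 72 of 104 Sham readings lay at 10 or above (69.2%), 52 of 96 in HAL (54.2%) and 69 of 97 in HEP (71.1%). HAL and HEP had more unread short cells than Sham. With leading zeros added these would count at 10 or above, so the shares are not closely comparable. The median reading of these probes per array ranged from 10.14 to 10.40 in Sham, from 9.92 to 10.30 in HAL and from 9.92 to 10.37 in HEP, so the ranges overlapped.

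**Figure D2:**
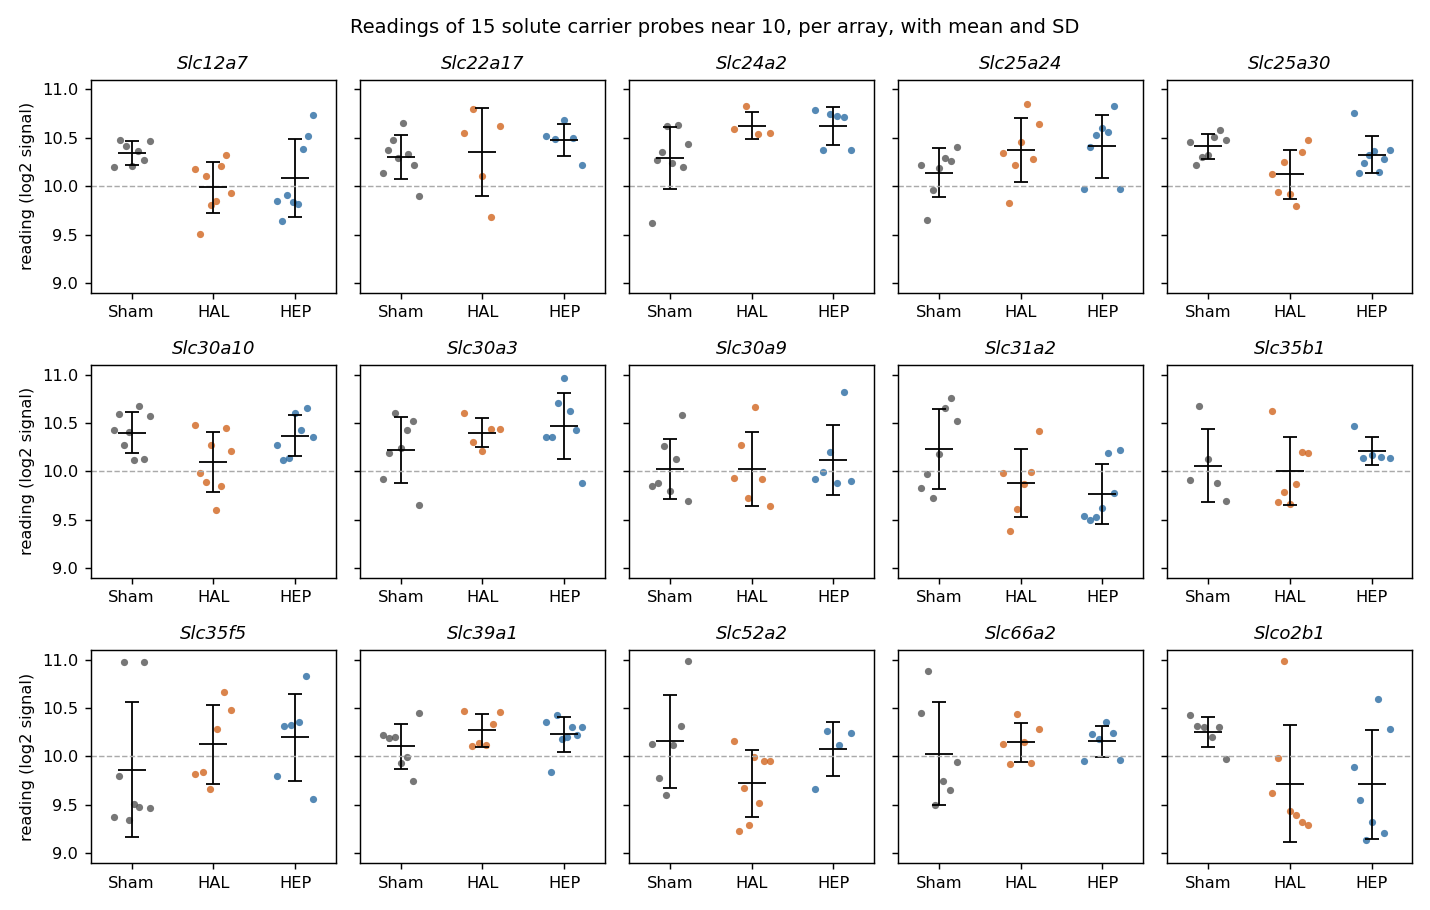
Readings of the 15 placed probes on each array, as log2 signal on the y axis, with the group mean and SD as bars. Grey points are Sham, orange HAL and blue HEP arrays, and the dashed line marks 10. Slc12a7 lies between 10.20 and 10.48 on the Sham arrays and between 9.51 and 10.33 on the HAL arrays.

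Among the ion carriers, Slc12a7 is a potassium-chloride cotransporter that lets both ions leave the cell and takes part in volume regulation. Its Sham readings had a lowest, median and highest value of 10.20, 10.36 and 10.48 (n = 7). The HAL values were 9.51, 10.01 and 10.33 (n = 8), and the HEP values 9.64, 9.88 and 10.74 (n = 8). All 7 Sham arrays read were above 10, against 4 of 8 HAL arrays and 3 of 8 HEP arrays. HAL was low and met the Sham range only at its top, and HEP spanned the whole Sham range. Mean readings were 10.34 ± 0.12 in Sham, 9.99 ± 0.27 in HAL and 10.08 ± 0.40 in HEP (SD). The HAL difference was -0.36 log2 (SE 0.16, 95% interval -0.68 to -0.033), with an adjusted p of 0.219 in limma and 0.148 among placed probes. The HEP difference was -0.26 (95% interval -0.58 to 0.063; adjusted p = 0.461 in limma). Without the use of digit counts, from decimals alone, both differences of Slc12a7 turned sign, to 0.020 and 0.24. Decimals of readings on both sides of 10 wrap round there. Those of Slc12a7 hardly clustered (0.079 on a measure of clustering from 0 to 1), so decimals alone cannot decide the sign.

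Slc24a2, a sodium, calcium and potassium exchanger known mainly from neurons, had differences of the other sign. Its Sham readings ranged from 9.62 to 10.64 with a median of 10.32 (n = 8). On the 4 HAL arrays read they were 10.54, 10.55, 10.59 and 10.83, and in HEP they ranged from 10.37 to 10.79 with a median of 10.72 (n = 6). The HAL and HEP arrays that were read lay high, with the top of Sham inside their range, but 4 HAL and 2 HEP cells were too short to be read. The differences were 0.33 in HAL (95% interval -0.022 to 0.68) and 0.33 in HEP (0.015 to 0.64), with adjusted p = 0.310 and 0.289 in limma. With short cells read by adding leading zeros, they were 0.040 in HAL and 0.18 in HEP (adjusted p = 0.952 and 0.697 in limma). Such a cell may instead have lost a trailing zero. With every cell at its most likely value, the HAL and HEP differences were 0.26 and 0.28 (adjusted p = 0.196 and 0.177 in limma). Sham array 1 was the only Sham array under 10, and the others began at 10.20.

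Slco2b1 takes up organic anions such as steroid sulfates and many drugs at the cell surface. Sham readings were 9.98 at the lowest, 10.30 at the median and 10.43 at the highest (n = 6). HAL readings were 9.29, 9.44 and 10.98 (n = 7), and HEP readings 9.14, 9.55 and 10.59 (n = 7). Readings reached 10 on 5 of 6 Sham arrays, 1 of 7 HAL arrays and 2 of 7 HEP arrays. Most HAL and HEP arrays were low, yet both groups reached above Sham. The same cells below 10, of which 1 was from Sham, 6 from HAL and 5 from HEP, counted toward the limit of 14 by which the probe was chosen, so this split is in part built into the choice. The differences were -0.54 in HAL (95% interval -1.08 to 0.0065; adjusted p = 0.289 in limma) and -0.54 in HEP (95% interval -1.09 to -0.0020; adjusted p = 0.310 in limma). The HAL value leaned on HAL array 4, at 10.98. Without it the difference was -0.75 (SE 0.20) among placed probes with an adjusted p of 0.0292 in limma, and the adjusted p over all 1738 genes was 0.0638 in limma. The cell behind it has 8 digits and could be a signal below 10 that lost a zero. The probe had a weight of 0.66 at a level of 9.5 or above in the level model, the least certain of the placed probes. From decimals alone its differences were 0.035 in HAL and 0.027 in HEP. Its readings on both sides of 10 wrap round there too, so decimals alone cannot decide the sign. Slc22a17, a receptor that takes up the iron-binding protein lipocalin-2, had differences of 0.053 in HAL and 0.18 in HEP (adjusted p = 0.917 and 0.694 in limma). With short cells read, they were -0.070 and 0.015.

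The metal and vitamin carriers held 6 of the 15 placed probes. Slc31a2, an intracellular copper transporter, had Sham readings of 9.72, 10.18 and 10.76 at the lowest, median and highest (n = 7). HAL gave 9.39, 9.92 and 10.42 (n = 6), and HEP 9.49, 9.62 and 10.22 (n = 7). Readings reached 10 on 4 of 7 Sham arrays, 1 of 6 HAL arrays and 2 of 7 HEP arrays, and the 3 ranges overlapped widely. HEP differed from Sham by -0.47 (SE 0.19, 95% interval -0.87 to -0.069), with an adjusted p of 0.220 in limma and 0.134 among placed probes. HAL differed by -0.36 (95% interval -0.77 to 0.058; adjusted p = 0.354 in limma).

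Slc30a10, which carries manganese out of the cell, read 10.11, 10.42 and 10.68 in Sham (lowest, median, highest; n = 8). HAL read 9.60, 10.10 and 10.48 (n = 8) and HEP 10.12, 10.35 and 10.65 (n = 7). All Sham and HEP arrays read were above 10, and 4 of 8 HAL arrays were. HAL was the low group, although 4 of its arrays lay within the Sham range. The HAL difference was -0.30 (SE 0.13, 95% interval -0.58 to -0.027; adjusted p = 0.222 in limma) and the HEP difference -0.033 (95% interval -0.32 to 0.25; adjusted p = 0.954 in limma). HEP minus HAL was 0.27 (95% interval -0.016 to 0.56; adjusted p = 0.559 in limma), so the models were not told apart.

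Slc52a2, a riboflavin transporter, read 9.60, 10.13 and 10.99 in Sham (n = 6). HAL read 9.23, 9.81 and 10.16 (n = 8), and the 4 HEP arrays read gave 9.66, 10.12, 10.24 and 10.26. Readings reached 10 on 4 of 6 Sham arrays, 1 of 8 HAL arrays and 3 of 4 HEP arrays, with overlapping ranges. The HAL difference was -0.44 (95% interval -0.86 to -0.0098; adjusted p = 0.267 in limma) and the HEP difference -0.084 (95% interval -0.59 to 0.42; adjusted p = 0.926 in limma). The cell behind the Sham value of 10.99 has 8 digits and could be a signal below 10 that lost a zero. With every cell at its most likely value, the HAL and HEP differences were -0.29 and 0.045 (adjusted p = 0.169 and 0.879 in limma). The other 3 placed probes of this group measured zinc carriers. The differences of Slc30a3, which loads zinc into synaptic vesicles, were 0.17 in HAL and 0.25 in HEP, those of Slc39a1, a zinc importer of the cell surface, 0.17 and 0.13, and those of Slc30a9 -0.0012 and 0.092. With short cells read, the HAL difference of Slc30a3 was 0.070. Their adjusted p-values lay between 0.540 and 0.9995 in HAL and between 0.541 and 0.891 in HEP in limma.

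Of the mitochondrial carriers, Slc25a30 read 10.22, 10.46 and 10.58 in Sham (lowest, median, highest; n = 7). HAL read 9.80, 10.13 and 10.48 (n = 7), and HEP 10.14, 10.30 and 10.75 (n = 8). Readings reached 10 on 7 of 7 Sham arrays, 4 of 7 HAL arrays and 8 of 8 HEP arrays, with HAL low and overlapping Sham at its top. The HAL difference was -0.29 (SE 0.12, 95% interval -0.54 to -0.033), with an adjusted p of 0.212 in limma and 0.148 among placed probes. In HEP it was -0.084 (95% interval -0.33 to 0.16; adjusted p = 0.813 in limma). Slc25a24, a calcium-regulated carrier of ATP-magnesium and phosphate, differed by 0.23 in HAL (95% interval -0.11 to 0.58) and 0.27 in HEP (-0.073 to 0.62), with adjusted p = 0.503 and 0.471 in limma.

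The carriers of the secretory pathway near 10 were Slc35f5 and Slc35b1, the latter an exchanger that brings ATP into the endoplasmic reticulum. Slc35f5 had the widest Sham spread, from 9.34 to 10.98 (n = 8), where 2 arrays lay at 10.97 and 10.98 and the other 6 under 10. The cells behind these 2 have 8 digits and could be signals below 10 that lost a zero. Its differences were 0.26 in HAL (95% interval -0.32 to 0.85) and 0.33 in HEP (-0.25 to 0.92), with adjusted p = 0.684 and 0.644 in limma. Those of Slc35b1 were -0.060 and 0.15 (adjusted p = 0.917 and 0.797 in limma). The 95% intervals of Slc35b1 reached from -0.45 to 0.34 in HAL and from -0.28 to 0.58 in HEP. Slc66a2, in no group, had 0.11 and 0.12 (adjusted p = 0.832 and 0.840 in limma). Its Sham array 2 read 10.89 from a cell of 8 digits, which could be a signal below 10 that lost a zero. With every cell at its most likely value, the HAL and HEP differences of Slc66a2 were 0.21 and 0.22 (adjusted p = 0.243 and 0.241 in limma).

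**Figure D3:**
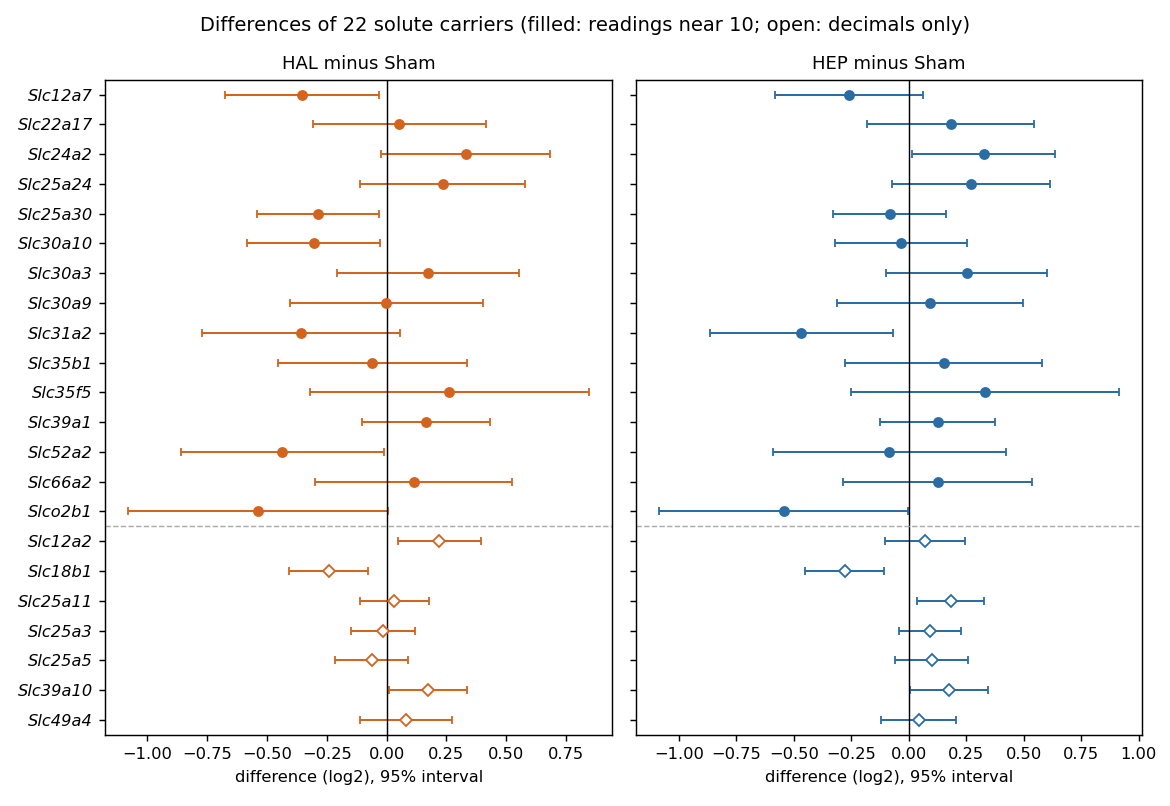
Differences from Sham in log2 with 95% intervals, HAL on the left and HEP on the right. Filled circles are the 15 carriers read near 10 and open diamonds the 7 read from decimals only. None passed an adjusted p of 0.05 in limma, and the widest intervals belong to Slc35f5 and Slco2b1.

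For the 19 probes at 10 or above on all arrays, decimals were set on a circle on which 0 and 1 are the same point. limma was fitted to the offsets from each probe's circular mean where the decimals lay close enough together (resultant length, a measure of clustering from 0 to 1, of at least 0.5). Each array there takes the version nearest that mean. The intervals do not cover an array that belongs on the other side. In that fit 13 of 686 genes passed in HAL (1.9%), 6 in HEP (0.875%) and 0 in HEP against HAL (0%) after Benjamini-Hochberg adjustment. Of the 7 members fitted 0 passed, and 3, 3 and 2 had an unadjusted p under 0.05, against 131, 114 and 69 of all genes. The limit removes probes whose groups lie far apart. An exact permutation test of the circular group means over all 12870 splits of 16 arrays was therefore run without it on 1450 genes, where 20 passed in HAL (1.38%) and 0 in HEP and in HEP against HAL (0%). Of the 19 members 0 passed, and 4, 3 and 3 had an unadjusted exact p under 0.05, against 252, 235 and 132 of all genes.

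**Figure D4:**
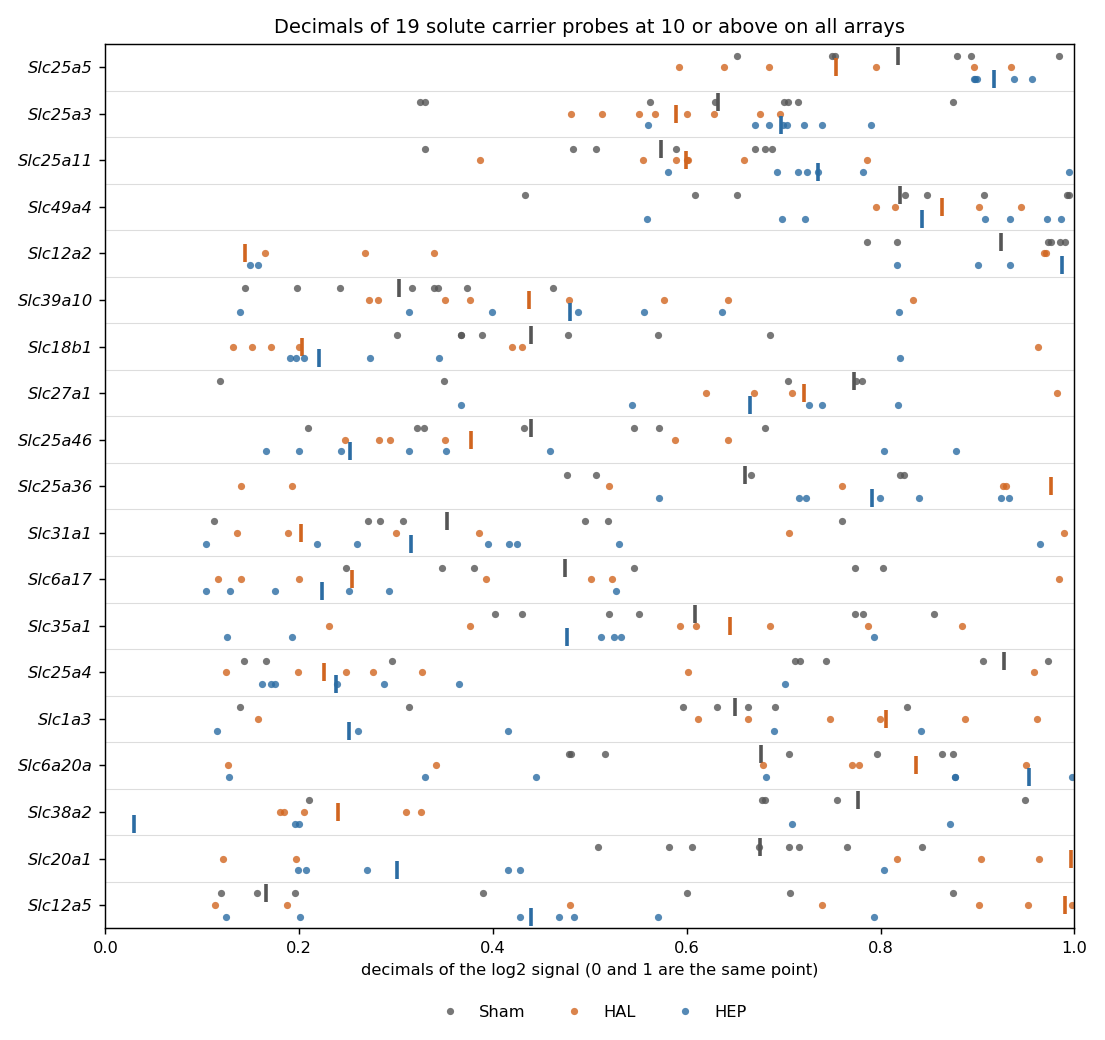
Decimals of the 19 probes at 10 or above on all arrays, one line per carrier, from the most to the least clustered. Points are arrays (grey Sham, orange HAL, blue HEP), short bars the circular mean of each group, and 0 and 1 on the x axis are the same point. The 8 Sham arrays of Slc20a1 lie between 0.51 and 0.84, and 1 of 5 HAL and 1 of 6 HEP arrays falls in that stretch.

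Slc20a1, a sodium-dependent phosphate importer, stood closest to the threshold in the permutation test. The decimals of its 8 Sham arrays ranged from 0.51 to 0.84. On the 5 HAL arrays read they were 0.82, 0.90, 0.96, 0.12 and 0.20, and on the 6 HEP arrays 0.20, 0.21, 0.27, 0.42, 0.43 and 0.80. The Sham arrays thus kept to their own stretch of the circle but for 1 array in HAL and 1 in HEP that met them. HAL and HEP arrays met each other at 0.20, and 3 HAL and 2 HEP cells were not read. The circular means were 0.68 ± 0.10 in Sham, 0.996 ± 0.15 in HAL and 0.30 ± 0.18 in HEP (circular SD). HAL differed from Sham by 0.32 or, the other way round the circle, by -0.68 (exact permutation p = 0.00078, adjusted p = 0.0512). HEP differed by -0.37 or 0.63 (exact permutation p = 0.0036, adjusted p = 0.150), and HEP from HAL by 0.31 or -0.69 (exact permutation p = 0.061, adjusted p = 0.583). Which version holds is not known, so no direction is given.

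Slc18b1, a vesicular carrier of polyamines, was the member nearest to the threshold in the decimals fit. Its Sham decimals were 0.30, 0.37, 0.37, 0.39, 0.48, 0.57 and 0.69. Those in HAL were 0.13, 0.15, 0.17, 0.20, 0.42, 0.43 and 0.96, and those in HEP 0.19, 0.20, 0.20, 0.27, 0.34 and 0.82. Both liver failure groups lay mostly below Sham on the circle, with 2 HAL arrays and 1 HEP array inside the Sham range. HEP array 1, at 0.82, lay far from the other HEP arrays. The HAL array at 0.96 lay next to the one at 0.13, across the point where 0 and 1 meet. The HAL difference was -0.24 (SE 0.081, 95% interval -0.41 to -0.078; adjusted p = 0.0899 in limma) and the HEP difference -0.28 (SE 0.084, 95% interval -0.45 to -0.11; adjusted p = 0.0786 in limma). The fit took HEP array 1, at 0.82, as 1 log2 unit lower, though it lay nearly opposite the probe's circular mean. Taken at 0.82, it would make the HEP difference smaller. The HEP adjusted p in limma was 0.0477 with array weights and 0.0490 without HAL arrays 2 and 5 and Sham array 3, and 0.206 without HEP array 1, where the difference was -0.21. In the permutation test both adjusted p-values were higher (exact permutation, 0.164 in HAL and 0.193 in HEP).

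Slc38a2, a sodium-coupled importer of small neutral amino acids such as glutamine and alanine, had 5 Sham arrays read, at 0.21, 0.68, 0.68, 0.75 and 0.95. The 5 HAL arrays read lay close together at 0.18, 0.18, 0.20, 0.31 and 0.33, and the 4 HEP arrays at 0.20, 0.20, 0.71 and 0.87. HAL was the tight group and 1 Sham array lay inside it. HAL differed from Sham by 0.46 or -0.54 (exact permutation p = 0.028, adjusted p = 0.215) and HEP by 0.25 or -0.75 (exact permutation p = 0.42, adjusted p = 0.724). With every cell, short ones too, at its most likely value, the differences were 0.22 in HAL and 0.079 in HEP (adjusted p = 0.0859 and 0.677 in limma). The other members of the amino acid group at 10 or above, Slc1a3 (the glial glutamate transporter), Slc6a17 (a vesicular carrier of neutral amino acids known from neurons) and Slc6a20a (a proline carrier), had adjusted p-values from 0.478 to 0.817 against Sham in the exact permutation test.

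Slc12a2, the sodium-potassium-chloride cotransporter that brings these ions into the cell, had Sham decimals of 0.79, 0.82, 0.97, 0.98, 0.99 and 0.99. The 5 HAL arrays read gave 0.16, 0.27, 0.34, 0.97 and 0.97, and the 5 HEP arrays 0.15, 0.16, 0.82, 0.90 and 0.93. On the circle 3 HAL arrays lay past all Sham arrays. The HAL difference was 0.22 (95% interval 0.048 to 0.40; adjusted p = 0.139 in limma; 0.14 with short cells read) and the HEP difference 0.071 (95% interval -0.10 to 0.24; adjusted p = 0.745 in limma). Slc12a5, a potassium-chloride cotransporter known from neurons, had decimals spread round the whole circle (resultant length 0.088), and its adjusted p-values against Sham were 0.870 and 0.802 in the exact permutation test.

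Slc25a11, the oxoglutarate and malate exchanger of the malate-aspartate shuttle, had circular means of 0.57 ± 0.13 in Sham, 0.60 ± 0.11 in HAL and 0.73 ± 0.11 in HEP (circular SD, n = 7 each). Read as the nearest version, HEP lay highest, and its lowest array, at 0.58, lay among those of Sham. A version 1 log2 unit away cannot be told apart from it. The HEP difference was 0.18 (SE 0.072, 95% interval 0.037 to 0.33; adjusted p = 0.206 in limma) and the HAL difference 0.033 (95% interval -0.11 to 0.18; adjusted p = 0.841 in limma). With every cell at its most likely value, the HEP difference was 0.12 (adjusted p = 0.435 in limma). The phosphate carrier Slc25a3 was read on all 24 arrays, with differences of -0.016 in HAL (95% interval -0.15 to 0.12) and 0.092 in HEP (-0.043 to 0.23; adjusted p = 0.943 and 0.546 in limma). The ADP/ATP carrier Slc25a5 had -0.061 and 0.099 (95% intervals -0.21 to 0.091 and -0.061 to 0.26; adjusted p = 0.698 and 0.565 in limma). The intervals of both carriers lay within 0.26 log2 of 0, but a change of 1 whole log2 unit would not show in decimals. Slc25a4, the other ADP/ATP carrier, had circular means of 0.93, 0.23 and 0.24 in Sham, HAL and HEP, with adjusted p-values of 0.476 and 0.361 in the exact permutation test. Slc25a36, a carrier of pyrimidine nucleotides, and Slc25a46, of the outer mitochondrial membrane, had adjusted p-values from 0.486 to 0.847 against Sham in the same exact test.

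Of the metal carriers at 10 or above, Slc39a10, a zinc importer, differed by 0.17 in HAL (95% interval 0.0099 to 0.34) and 0.18 in HEP (0.0066 to 0.35), with adjusted p = 0.223 and 0.283 in limma. Its 8 Sham arrays lay between 0.14 and 0.46, the 8 HAL arrays between 0.27 and 0.83 and the 7 HEP arrays between 0.14 and 0.82, so the ranges overlapped. Slc31a1, the high-affinity copper importer, had circular means of 0.35 in Sham, 0.20 in HAL and 0.32 in HEP, with adjusted p-values of 0.738 and 0.909 in the exact permutation test. The lysosomal carrier Slc49a4 had differences of 0.081 and 0.043 (adjusted p = 0.698 and 0.822 in limma), and of 0.17 and 0.076 with short cells read. Slc27a1, a fatty acid transporter, and Slc35a1, which brings CMP-sialic acid into the Golgi, had adjusted p-values from 0.787 to 0.950 against Sham in the exact permutation test.

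The 15 unplaced probes give no level. Read as if near 10, their smallest adjusted p against Sham in limma was 0.202, that of Slc33a1, which carries acetyl-CoA into the endoplasmic reticulum, in HAL. Its weight at a level of 9.5 or above was 9.9e-06, so the size and sign of its difference were not used. The same holds for Slc17a3, a urate and phosphate carrier, Slc9a9, a sodium-proton exchanger of endosomes, Slc51a, a subunit of the bile acid exporter OST, Slc25a15, the mitochondrial ornithine carrier, Slc3a1, the heavy chain of the cystine carrier, and for the cotransporters Slc5a12 (monocarboxylates), Slc5a7 (choline) and Slc5a3 (myo-inositol). It also holds for Slc8a1, a sodium-calcium exchanger, Slc24a3, a potassium-dependent one, Slc4a2, a chloride-bicarbonate exchanger, Slc30a5, a zinc carrier, Slc35d3 and the second probe of Slc35a1.

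The sodium pump, which maintains the gradient that many of these carriers use, and proteins that accompany carriers formed a list of 26 genes, 22 with a probe. Of these 14 had a probe that stayed at 10 or higher on every array, 2 were read near 10 and 7 from decimals in limma. None was called in any comparison by limma after Benjamini-Hochberg adjustment, and 0 had an unadjusted p under 0.05 there. In the exact permutation test 0 of 14 passed, and 1 in each of the 3 comparisons had an unadjusted p under 0.05. Over all genes, 3.8% near 10, 1.9% from decimals and 1.38% in the permutation test were called in HAL. The HEP shares were 2.82%, 0.875% and 0%, and those of HEP against HAL 0%. An unadjusted p under 0.05 was met by 9.1% to 19.1% of all genes. Counts of 0 among 2, 7 and 14 genes lie near these shares and are not a result about these proteins.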

How the data were processed

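Groups of the 24 arrays, 8 each, come from the labels. RMA, of unstated version, was used by the authors (per the submitters' processing notes) and yields log2 signals. As provided here, the deposited cells are whole numbers, read as the decimals of signals with 10 significant digits, without leading and trailing zeros. The members, lists and tests were chosen with earlier results of these data known.

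Readings near 10 came from probes with 1 to 14 cells of 9 digits, 1 probe per gene, with at least 2 readings in each group. The 3 group means were fitted to all 24 arrays together (limma 3.58.1, R 4.3.3), and p-values adjusted after Benjamini-Hochberg across every gene read. The level model (levels 3 to 14, outlier share 0.02) placed a probe if at least 0.5 of its weight lay at 9.5 or above; it and the permutation test were added after the data were seen. Scripts were tested on simulated data. Python 3.11.15 with numpy 2.4.6, pandas 2.3.3 and scipy 1.17.1 was used. Genes were named from the platform annotation, using probes with 1 symbol.

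By the rule for named genes, any called carrier and, in each transport group, up to 3 members of the largest difference from Sham were named, 22 in all, with those next to the limit of 14 cells; other members named here were added to give their values. Alternatives changed the range, the short cells, the arrays in the fit, array weights, centring, the block, the probe choice and the clustering limit. Sample numbers did not pair the arrays.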

Additional observations from a re-analysis of the deposited data

Results flagged for a closer look

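In 5 of 36 groups of 4 to 10 readings, the highest or lowest array lay apart from the others by Dixon's 95% criterion, which chance meets in about 1 of 20 groups. Slco2b1 read 10.98 on HAL array 4, while the other HAL arrays read 9.29 to 9.98 (n = 7). Slc24a2 read 9.62 on Sham array 1, against 10.20 to 10.64 on the others (n = 8), and 10.83 on HAL array 3, against 10.54 to 10.59 (n = 4). Slc25a30 read 10.75 on HEP array 1, against 10.14 to 10.38 (n = 8). The decimals of Slc18b1 were 0.820 on HEP array 1, against 0.190 to 0.344 on the others (n = 6). The same HEP array thus stood apart for 2 carriers, in opposite directions if the decimals are read as the nearest version.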

How the results depend on the processing

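Solute carriers called were 0 under every alternative run except 3, and the causes were not tested. Slc18b1 was called in HEP from decimals with array weights (1 carrier) and without HAL 2 and 5 and Sham 3 together (1 carrier), and Slco2b1 in HAL among placed probes without HAL array 4 (0 to 1 carriers over single arrays left out). Both calls of Slc18b1 took HEP array 1 as 1 log2 unit lower. Over all genes read near 10, HAL gave 0 from decimals only, 37 without HAL 2 and 5 and Sham 3, and 104 with the most likely value of every cell, and 49 to 88 with 1 array left out (68 to 114 among placed probes). HEP gave 32 with 3 to 12 cells of 9 digits and 32 with only the 2 groups compared, 0 from decimals only, 98 with array weights, 78 with the most likely value, and 22 (without HEP 7) to 113 (without HEP 8) with 1 array left out. It was 23 to 30 without HEP 3, 4, 5 or 6. Among placed probes it was 30 (without HEP 7) to 131 (without HEP 8), and 31 to 36 without HEP 1 or 5 or Sham 6 or 7. HEP against HAL gave 1 with the most likely value and 0 to 1 (without HAL 7) with 1 array left out; among placed probes 0 to 3 (2 without HAL 7, 3 without HEP 2). Of genes read from decimals, HAL gave 2 at a resultant length of 0.4, 1 at 0.7, 2 with short cells read, 0 with 2 groups, 34 with array weights, 4 with arrays centred, 0 without HAL 2 and 5 and Sham 3, 20 by exact permutation, 24 with the most likely value and 0 to 15 with 1 array left out (10 to 15 without Sham 7, Sham 8 or HAL 7, and 0 to 6 without any other Sham or HAL array). HEP gave 13, 0, 0, 1, 41, 11, 17, 0 and 3 under the same settings and 1 to 22 with 1 array left out (22 without HEP 8, 11 without Sham 3, 7 to 8 without Sham 7 or 8, and 1 to 3 without any other Sham or HEP array), and HEP against HAL 2 with array weights and 0 to 2 (without HEP 8). With the replicate number as a block, near 10 gave 46 genes in HAL, 33 in HEP and 0 in HEP against HAL, decimals 5, 2 and 0, and 0 carriers. Same-numbered arrays correlated above 0.1 in at most 4 of 8 pairs, so the block is not a pairing. Differences that turned sign were all uncalled. From decimals only those in HAL were 0.020 for Slc12a7, 0.035 for Slco2b1, -0.11 for Slc30a3 and 0.048 for Slc31a2, and in HEP -0.085 for Slc35f5, 0.24 for Slc12a7, 0.027 for Slco2b1 and -0.035 for Slc30a3. Near 10 that setting wraps readings on both sides of 10 and sets no limit on clustering. It cannot decide these signs, and its counts of 0 genes near 10 are no evidence either way. Under the block HAL gave -0.043 for Slc30a3 and -0.00050 for Slc25a11, and centring gave 0.048 for Slc30a9 and 0.026 for Slc25a3. Short cells gave -0.070 and the most likely value -0.034 for Slc22a17 in HAL, and 0.045 for Slc52a2 in HEP. Without HAL 2 and 5 and Sham 3, Slc35b1 in HAL was 0.040 and Slc49a4 in HEP -0.0069. With 1 array left out, HAL differences of Slc22a17 ranged from -0.058 to 0.22, Slc25a11 from -0.0061 to 0.068, Slc25a3 from -0.056 to 0.023, Slc30a9 from -0.13 to 0.091 and Slc35b1 from -0.16 to 0.096, and HEP differences of Slc30a10 from -0.081 to 0.0083, Slc30a9 from -0.048 to 0.18, Slc49a4 from -0.0069 to 0.088 and Slc52a2 from -0.20 to 0.082. The number of arrays, unread short cells and uncertain placement near 10 limit precision, and whole-unit changes of probes above 10 are not seen.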
